A study of Mus musculus with 6 samples.

Results

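The Hox genes encode homeodomain transcription factors that give cells along the body axis their positional identity. In the mouse they lie in 4 clusters, Hoxa, Hoxb, Hoxc and Hoxd, and genes with the same number in different clusters are paralogues that descend from one ancestral gene. Low numbers are used towards the head and high numbers towards the tail, and many adult tissues keep part of the pattern of the embryonic region they came from. The paralogues of position 11 act in the embryo when the kidney is induced. Their proteins bind DNA together with cofactors of the Pbx, Meis and Pknox families, and Polycomb and MLL complexes keep the clusters off or on. Members were all probe sets, the groups of short probes that report 1 transcript, whose array annotation gives a single symbol made of Hoxa, Hoxb, Hoxc or Hoxd and a number. There were 48 such probe sets among 45101, and they stood for 33 of the 39 Hox genes. The other 6 genes were not analysed here, and 3 probe sets that carry 2 Hox symbols were not used.

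The arrays were made from glomeruli, the filtering units of the kidney, isolated with magnetic beads from female mice aged 6 weeks, with 1 Affymetrix array per mouse. The 3 transgenic mice carried Pod-Cre, a Cre recombinase under the podocin promoter, and a floxed Vhl gene (fVHL), so that Vhl was excised in podocytes, the epithelium on the outer side of the glomerular filter. The 3 controls were littermates labelled wildtype. The parents were homozygous for the floxed locus, so littermate controls would inherit floxed alleles. The labels call them wildtype and do not state their alleles at this locus. The transgenic mice had been chosen for urinary albumin no higher than the wildtype mean, with urine taken at 4 weeks. They thus represent mice without raised urinary albumin at that age, which was before the arrays at 6 weeks. The Vhl protein targets the hypoxia-inducible factors (HIF) to the proteasome, and glomerular cells other than podocytes keep the gene.

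The values are MAS5 signals on a linear scale, and the median signal lay between 94.6 and 107.5 over the 6 arrays. Differences are log2 differences of signal + 28, transgenic minus wildtype, with n = 3 arrays per group throughout. The Vhl signal was 809, 665 and 707 in wildtype replicates 1 to 3 and 611, 619 and 606 in transgenic replicates 1 to 3, a log2 difference of -0.23 (limma adjusted p = 0.944). Egln3, a HIF target and prolyl hydroxylase gene, was at 144, 171 and 149 in wildtype and at 5098, 4792 and 3678 in transgenic arrays (limma adjusted p = 9.74e-05). Wildtype replicate 3 stood apart in its tubule marker signals. The 12 proximal tubule markers, of which all 12 were tested, had a mean log2 level of 10.37 in that array, against 12.22 and 12.67 in the other wildtype arrays and 12.09, 12.04 and 12.95 in transgenic replicates 1 to 3. Their summed signal ran from 21246 to 98146 in wildtype and from 72376 to 125158 in transgenic arrays, and no member was near 0, the lowest signal of any being 151. The 7 tested podocyte markers, of 11, summed to between 78736 and 101415 in wildtype and between 71075 and 83862 in transgenic arrays. Of the 8 tested leukocyte markers, of 9, 5 were higher in all transgenic than in all wildtype arrays, a pattern of 5.04% of all genes. Their median log2 difference was 0.61, 7 of the 8 were positive, and none had a limma adjusted p below 0.05. Their mean log2 level was lowest in wildtype replicate 3 (8.79) and highest in transgenic replicate 3 (9.89). In such bulk RNA, fewer cells of a type and less RNA per cell cannot be told apart.

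Promoters of a few members are printed first, because the deletion acts on HIF, whose binding motif can have the core ACGTG. The form GCGTG of this core was not looked for. The letters ACGTG were looked for on both strands, where they read CACGT on the other, and the palindrome of both counts as 2 overlapping matches. RefSeq promoter windows (build GRCm38.p6) span 250 bases before to 50 after a transcript start, and 24 windows of 22 Hox genes matched by symbol. The motif was in 7 of the 24 windows (29.2%), and in 19.6% of all 32851 windows of that length. Among the Hox genes bright enough to be tested, 11 had a window, and 2 of their 12 windows held it, those of Hoxa11 and Hoxd10. A match is a description of letters and not a binding site. The median G+C content was 57.7% in the Hox windows and 52.7% in all windows, and the median number of CpG dinucleotides was 14.5 and 7.0. The windows below are those of Hoxa10, the member with the lowest p, at its 2 listed starts, and of Hoxa11 and Hoxd10. They run 5′ to 3′ on the strand of the gene, and capitals mark the motif.
Hoxa10 promoter, chr6:52240805-52241104, minus strand: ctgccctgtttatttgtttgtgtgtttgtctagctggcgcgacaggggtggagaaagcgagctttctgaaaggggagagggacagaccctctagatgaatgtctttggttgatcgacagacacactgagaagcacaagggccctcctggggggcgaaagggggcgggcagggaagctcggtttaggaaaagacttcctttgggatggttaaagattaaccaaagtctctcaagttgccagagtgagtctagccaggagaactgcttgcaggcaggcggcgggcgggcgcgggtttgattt
Hoxa10 promoter, chr6:52234890-52235189, minus strand: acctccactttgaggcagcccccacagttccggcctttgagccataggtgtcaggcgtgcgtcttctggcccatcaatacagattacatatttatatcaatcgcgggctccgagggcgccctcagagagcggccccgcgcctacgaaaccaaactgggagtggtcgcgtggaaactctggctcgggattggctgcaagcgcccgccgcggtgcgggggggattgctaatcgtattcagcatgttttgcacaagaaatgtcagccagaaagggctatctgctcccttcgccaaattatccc
Hoxa11 promoter, chr6:52245761-52246060, minus strand: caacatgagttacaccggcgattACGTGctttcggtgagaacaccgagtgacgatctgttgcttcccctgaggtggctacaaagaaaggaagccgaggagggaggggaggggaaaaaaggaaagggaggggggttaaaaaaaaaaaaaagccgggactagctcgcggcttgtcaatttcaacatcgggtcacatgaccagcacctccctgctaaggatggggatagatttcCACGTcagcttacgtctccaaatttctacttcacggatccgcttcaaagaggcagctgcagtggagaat
Hoxd10 promoter, chr2:74691641-74691940, plus strand: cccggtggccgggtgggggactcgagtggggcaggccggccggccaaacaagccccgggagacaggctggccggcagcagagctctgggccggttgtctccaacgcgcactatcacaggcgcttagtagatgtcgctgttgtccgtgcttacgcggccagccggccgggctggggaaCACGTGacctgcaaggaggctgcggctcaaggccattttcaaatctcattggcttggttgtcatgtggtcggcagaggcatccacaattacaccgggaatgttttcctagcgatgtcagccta
Both Hoxa10 windows lacked ACGTG on either strand. The second of them holds GCGTG, a form that was not counted in any window. The Hoxa11 window held ACGTG once on each strand and the Hoxd10 window held the palindrome.

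The wildtype glomerulus preparations showed Hox signal in the middle of the paralogue series and little at its ends. They also held tubule RNA, with signals of 26921, 27167 and 11354 in wildtype replicates 1 to 3 for the distal nephron marker Umod. Its wildtype mean was 21814, and that of the podocyte marker Podxl was 27646. Signals depend on the probes, so these means do not compare transcript abundance. Which cells gave the Hox signals was not tested. Probe sets in the upper 50% of the array by mean, a signal of about 96.4, were kept, and a gene was read from the brightest of its kept probe sets. By this measure 21 of the 33 Hox genes were tested, and their numbers ran from 2 to 11. Position 9 was kept in all 4 clusters, and position 10 in all 3 clusters that have such a gene. The filter used all 6 arrays, and Hoxb9 passed it with a wildtype mean of 95.5 and a transgenic mean of 108, so in wildtype alone it lay just under the filter value. At positions 1, 12 and 13, none of the 7 genes with a probe set was kept, and the signals of their 8 probe sets lay between 3.18 and 60.5 in all arrays. By cluster, 6 of 9 Hoxa genes, 6 of 9 Hoxb genes, 6 of 7 Hoxc genes and 3 of 8 Hoxd genes with a probe set were kept, and in Hoxd these were the neighbours Hoxd8, Hoxd9 and Hoxd10. Detection calls were not used here, and a low signal is not evidence that a transcript is absent.

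**Figure D1:**
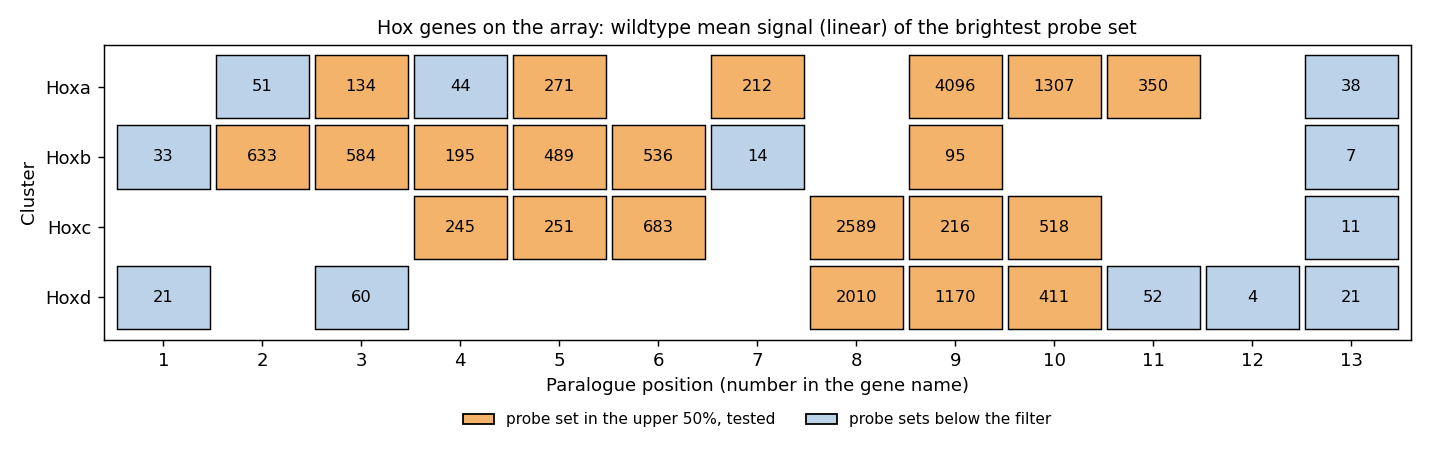
Each box is a Hox gene with a probe set of its own symbol, placed by cluster (rows) and paralogue position (columns), and the number is the mean wildtype MAS5 signal (n = 3 arrays, linear scale) of its brightest probe set. Orange boxes, the 21 tested genes, lie within positions 2 to 11, where Hoxa2, Hoxa4, Hoxb7, Hoxd3 and Hoxd11 are blue (below the filter). Positions 1, 12 and 13 hold only blue boxes. Signals depend on the probes, so numbers in different boxes are not an order of transcript abundance.

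The kept genes of positions 2 and 3, which pattern the hindbrain and pharyngeal region in the embryo, were steady in one case and variable in the others. Hoxb2 had signals of 625, 635 and 639 in wildtype and 635, 617 and 680 in transgenic arrays. Hoxb3 had 536, 509 and 708 in wildtype and 551, 596 and 478 in transgenic arrays. Hoxa3, a gene of thymus and parathyroid development, had 96.8, 138 and 167 in wildtype and 154, 175 and 110 in transgenic arrays. The groups overlapped in all 3 genes, and in Hoxb3 and Hoxa3 wildtype replicate 3 was the highest wildtype array and transgenic replicate 3 the lowest transgenic one. Their log2 differences were 0.02 for Hoxb2 (95% interval -0.22 to 0.27), -0.10 for Hoxb3 and 0.11 for Hoxa3. The sign of Hoxb2 turned with median scaling (-0.04), that of Hoxb3 with either tubule covariate and without wildtype replicate 3 (0.04), and that of Hoxa3 when its kept probe sets were averaged (-0.08).

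Positions 4 and 5 gave 5 tested genes. Hoxb4, known for its action in blood stem cells, had signals of 190, 194 and 202 in wildtype and 217, 214 and 169 in transgenic arrays. Hoxc4 had 220, 206 and 309 in wildtype and 311, 333 and 253 in transgenic arrays. The groups of Hoxc4 overlapped only through wildtype replicate 3 and transgenic replicate 3, and its log2 difference of 0.27 (95% interval -0.18 to 0.72) was the highest of the 21. It was 0.43 without wildtype replicate 3, 0.43 with the proximal tubule and 0.40 with the distal nephron covariate, 0.45 with array weights and 0.17 without wildtype replicate 2, and its limma adjusted p lay between 0.385 and 0.998 over 17 settings. Hoxa5, a gene of lung development, had 258, 231 and 325 in wildtype and 293, 248 and 212 in transgenic arrays. Hoxb5 had 447, 391 and 629 in wildtype and 422, 565 and 326 in transgenic arrays. Hoxc5 had 202, 279 and 273 in wildtype and 218, 235 and 219 in transgenic arrays. In Hoxa5 and Hoxb5, as in Hoxb4 and Hoxc4, wildtype replicate 3 was the highest of its group and transgenic replicate 3 the lowest of its own. The log2 differences were 0.02 for Hoxb4, -0.10 for Hoxa5, -0.16 for Hoxb5 and -0.13 for Hoxc5, and Hoxb4 turned to -0.0060 with quantile normalization and to -0.03 with median scaling.

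Positions 6 to 8, which in the embryo belong to the thoracic region, gave 5 tested genes. Hoxc8, which patterns thoracic vertebrae and motor neurons, had signals of 1992, 2253 and 3523 in wildtype and 2092, 2351 and 1550 in transgenic arrays. Its mean was 2589 ± 819 (SD, n = 3) in wildtype and 1998 ± 409 (SD, n = 3) in transgenic arrays, a log2 difference of -0.35 (SE 0.24, limma adjusted p = 0.944). Without wildtype replicate 3 the Hoxc8 difference was -0.10, without transgenic replicate 3 it was -0.18, and with the proximal tubule covariate it was -0.13. Hoxd8 had 2196, 1838 and 1996 in wildtype and 2203, 1900 and 2297 in transgenic arrays, a log2 difference of 0.08. Hoxd8 therefore did not have the high wildtype replicate 3 of Hoxc8, its paralogue. Hoxb6 had 552, 541 and 515 in wildtype and 544, 519 and 430 in transgenic arrays. Hoxc6 had 690, 602 and 755 in wildtype and 779, 721 and 456 in transgenic arrays. Hoxa7 had 174, 235 and 227 in wildtype and 273, 205 and 308 in transgenic arrays. The groups of these 3 genes overlapped, with log2 differences of -0.11 for Hoxb6, -0.09 for Hoxc6 and 0.27 for Hoxa7.

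Positions 9 to 11, which pattern the caudal trunk and the limbs, held the gene with the lowest p of the family. Hoxa10, which patterns the lumbar axis and the uterus, had signals of 1436, 1196 and 1291 in wildtype and 921, 1085 and 847 in transgenic arrays. All 3 transgenic arrays lay below all 3 wildtype arrays. Its mean was 1307 ± 121 (SD, n = 3) in wildtype and 951 ± 122 (SD, n = 3) in transgenic arrays, a log2 difference of -0.45 (SE 0.13, 95% interval -0.76 to -0.14). It did not pass the threshold over all genes (limma adjusted p = 0.761), and 159 of the 11159 genes had a lower unadjusted p. Over 18 alternative settings the Hoxa10 difference stayed negative, between -0.55 and -0.37, with adjusted p between 0.289 and 0.998. In the settings that left out single arrays the sign could not turn, because the groups do not overlap. Its value was -0.46 without wildtype replicate 3 and -0.42 with the proximal tubule covariate. The other Hoxa10 probe set was below the filter, with a mean of 32.8 over the arrays, and differed by 0.12.

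The neighbours of Hoxa10 in the cluster did not separate the groups. Hoxa9, known from blood progenitors and leukaemia, had signals of 3990, 3381 and 4918 in wildtype and 4129, 3885 and 3019 in transgenic arrays. Its log2 difference was -0.15 (95% interval -0.57 to 0.27), and -0.01 without wildtype replicate 3. Hoxa11, a kidney induction gene, had 263, 349 and 439 in wildtype and 231, 339 and 271 in transgenic arrays, a log2 difference of -0.28 (95% interval -0.80 to 0.23). The Hoxa11 difference was -0.46 without wildtype replicate 1, -0.12 without wildtype replicate 3, and -0.17 both without transgenic replicate 1 and with the proximal tubule covariate. Both genes were highest in wildtype replicate 3. The difference of Hoxa10 from its neighbours was not tested.

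The other genes of position 10 gave different values. Hoxc10, which acts in lumbar motor neurons, had signals of 549, 551 and 453 in wildtype and 565, 576 and 598 in transgenic arrays. All 3 transgenic arrays lay above the wildtype arrays, by a small margin over wildtype replicates 1 and 2, and the log2 difference was 0.16 (SE 0.12, limma adjusted p = 0.944). Without wildtype replicate 3 it was 0.07 and with the proximal tubule covariate 0.09. Hoxd10 had 370, 381 and 481 in wildtype and 422, 342 and 356 in transgenic arrays, a log2 difference of -0.12, which was -0.01 without wildtype replicate 3 and -0.21 without transgenic replicate 1. The 3 paralogues of position 10 thus had values of -0.45, 0.16 and -0.12, and no test was made among them.

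The remaining genes of position 9 overlapped between the groups. Hoxd9 had signals of 1123, 1173 and 1215 in wildtype and 1094, 1044 and 1267 in transgenic arrays. Hoxc9, which acts in thoracic motor neurons, had 295, 203 and 149 in wildtype and 254, 276 and 186 in transgenic arrays. Hoxb9 had 130, 89.5 and 66.8 in wildtype and 144, 85.5 and 94.5 in transgenic arrays. Hoxc9 and Hoxb9 were lowest in wildtype replicate 3, unlike Hoxa9, their paralogue. Their log2 differences were 0.16 for Hoxc9 and 0.15 for Hoxb9, which turned to -0.05 and -0.03 without wildtype replicate 3, and Hoxd9 was at -0.05. Hoxb9, with a mean of 102 over all arrays, was the member just inside the filter, and Hoxd3, with 74.0, the one just outside.

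**Figure D2:**
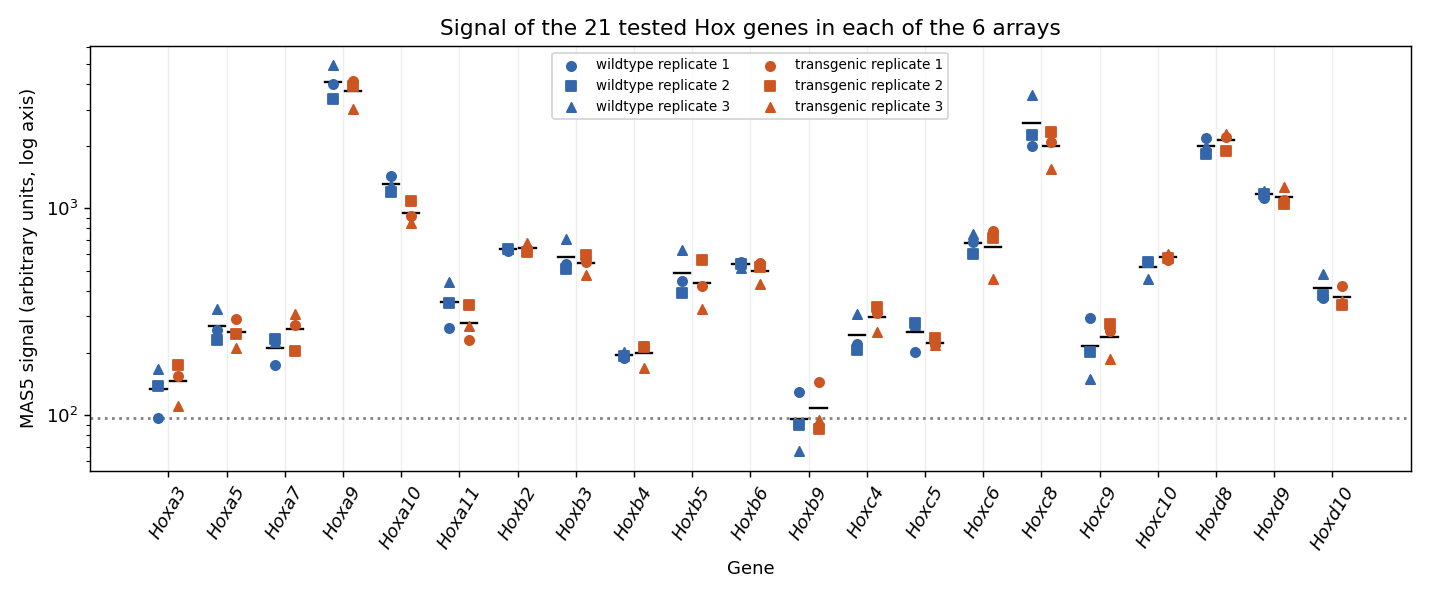
Points are the MAS5 signals (log axis) of the 21 tested Hox genes in each array, blue for wildtype and orange for transgenic, with the marker shape giving the replicate and a black line the group mean; the dotted line is the filter at 96.4. The groups are apart in Hoxa10 and Hoxc10 and overlap in the other genes, and blue triangles (wildtype replicate 3) top their group in 13 of 21 genes.

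Taking the family together, 0 of 21 tested Hox genes passed the threshold, against 0.0807% of all genes tested, and 1, Hoxa10, had an unadjusted limma p below 0.05, against 4.92% of all genes. The groups did not overlap in 2 of 21 genes (9.52%), Hoxa10 and Hoxc10, against 10.7% of all genes, which is near the background. Hoxa10 was the 1 gene lower in all transgenic arrays, a pattern of 5.64% of all genes, and Hoxc10 the 1 gene higher in all, a pattern of 5.04%. The log2 difference was below 0 in 12 of 21 genes (57.1%), against 49.1% of all genes. The median difference of the Hox genes was -0.09, against 0.0043 over all genes tested, and the range ran from -0.45 for Hoxa10 to 0.27 for Hoxc4. The median was -0.01 without wildtype replicate 3, 0.0051 without transgenic replicate 3, 0.03 with the proximal tubule covariate and 0.05 with array weights. The half-width of the 95% intervals lay between 0.24 and 0.64 on the log2 scale with 3 arrays per group. These intervals are not adjusted for the number of genes. Hoxa10 did not pass although its interval excludes 0, so differences larger than the half-width could also go without a call.

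**Figure D3:**
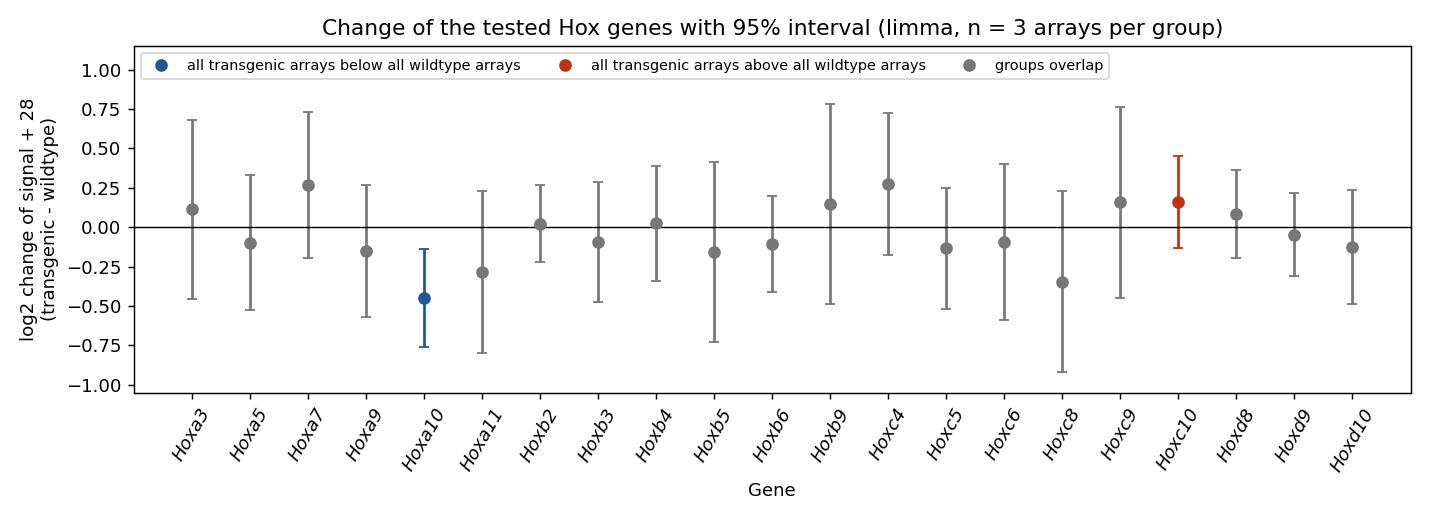
Points are log2 differences (transgenic minus wildtype, signal + 28) of the 21 tested Hox genes with 95% intervals from limma, n = 3 arrays per group. Of the intervals, that of Hoxa10 (-0.76 to -0.14) excludes 0, with an adjusted p of 0.761 over all genes; blue and red mark the genes whose groups do not overlap.

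Several Hox genes differed more between mice of one group than between groups. In 9 of the 21 genes (42.9%) wildtype replicate 3 was the highest wildtype array and transgenic replicate 3 the lowest transgenic array, against 22.5% of all genes tested. Wildtype replicate 3 alone topped its group in 13 of 21 Hox genes (61.9%), against 43.9% of all genes. The 9 genes were Hoxa3, Hoxa5, Hoxa9, Hoxb3, Hoxb4, Hoxb5, Hoxc4, Hoxc6 and Hoxc8. Hoxc8 was higher in wildtype replicate 3 than in the mean of the other wildtype arrays by 0.73 on the log2 scale, and Hoxb5 by 0.56. In transgenic replicate 3, Hoxc6 was below the mean of the other transgenic arrays, at -0.68, and Hoxb5 at -0.55. Other members were placed differently, with Hoxc9 at -0.62, Hoxb9 at -0.52 and Hoxc10 at -0.27 in wildtype replicate 3, and Hoxa7 at 0.34 and Hoxd9 at 0.24 in transgenic replicate 3. The same 2 arrays had the lowest and the highest proximal tubule level (10.37 and 12.95), the lowest and highest level of the 14 tested distal nephron and collecting duct markers (9.19 and 10.48), and the highest and lowest podocyte level (13.60 and 13.06). These 2 arrays also had the lowest and highest level of the 8 tested leukocyte markers (8.79 and 9.89). The same held for the 6 tested parietal epithelial markers (7.91 and 8.91). The part of these levels in the Hox signals was not tested beyond the covariates given above. The median SD of log2 signal between wildtype mice was 0.23 for the Hox genes and 0.19 for all genes.

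**Figure D4:**
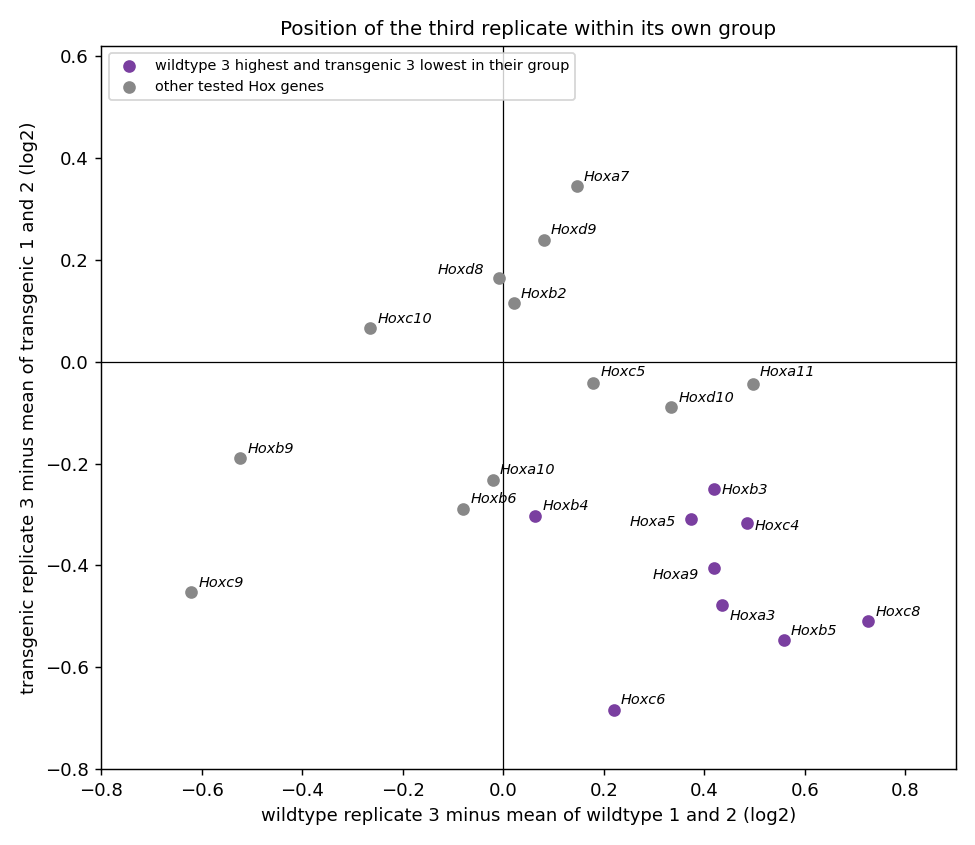
Each point is a tested Hox gene; the x axis gives the log2 level in wildtype replicate 3 minus the mean of wildtype replicates 1 and 2, and the y axis the same for the transgenic arrays. The 9 purple genes, led by Hoxc8 at 0.73 on the x axis, lie at the lower right, while Hoxc9 and Hoxb9 lie at the left and Hoxa7 at the top.

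Probe sets of the same gene could be set against each other in 7 genes with several kept probe sets. In 4 of them all differences had the same sign, and in Hoxa3, Hoxc6 and Hoxd8 they did not. The Hoxc6 probe sets differed by -0.09, 0.10 and 0.85, and the last of these had signals of 181, 80.6 and 27.6 in wildtype and 222, 205 and 97.9 in transgenic arrays. The Hoxa3 probe sets differed by 0.11 and -0.27. The Hoxd8 probe sets differed by 0.08 and -0.03. The sign in Hoxa3, Hoxc6 and Hoxd8 thus was not the same in all probe sets, and whether their probe sets differ was not tested.

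The 12 Hox genes below the filter were Hoxa2, Hoxa4, Hoxa13, Hoxb1, Hoxb7, Hoxb13, Hoxc13, Hoxd1, Hoxd3, Hoxd11, Hoxd12 and Hoxd13. The highest mean over the arrays among their probe sets was 74.0. Hoxd3 had signals of 62.2, 63.5 and 53.2 in wildtype and 104.2, 55.7 and 105 in transgenic arrays. Hoxa2 had 61.0, 41.9 and 50.8 in wildtype and 57.9, 44.7 and 71.6 in transgenic arrays, and Hoxd11, a kidney induction gene like Hoxa11, had 57.0, 52.9 and 45.2 and 52.2, 46.1 and 46.3. In all 3 the groups overlapped. In a fit without the filter 0 of 33 Hox genes passed (lowest limma adjusted p = 0.775), and 1 had an unadjusted p below 0.05, which was again Hoxa10.

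The DNA-binding cofactors of Hox proteins had negative differences, none of which passed. Of 9 genes listed, 6 were tested, 0 passed in either direction, and all 6 had a negative difference, with a median of -0.14. Over all genes tested, 49.1% had a difference below 0. All 6 were also negative after quantile normalization (median -0.14) and median scaling (-0.20). With the proximal tubule or distal nephron covariate, with averaged probe sets, without wildtype replicate 3 and without transgenic replicate 3, 5 of the 6 were negative, with medians between -0.10 and -0.07. With array weights 4 of 6 were negative (median -0.09), and without the filter 6 of 8. Pknox2 had signals of 231, 277 and 406 in wildtype and 154, 183 and 216 in transgenic arrays. Its log2 difference was -0.62 (limma adjusted p = 0.942). It was the 1 cofactor of the 6 whose groups did not overlap, with all transgenic arrays lower, a pattern of 5.64% of all genes. Meis2 had 6083, 4757 and 5459 in wildtype and 5339, 4656 and 3690 in transgenic arrays (-0.26). The mean log2 level of the 6 cofactors was 10.14 in wildtype replicate 3 and 9.58 in transgenic replicate 3, against 9.73 to 9.86 in the other arrays, so the same 2 arrays lay at the ends.

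Genes that maintain or set Hox expression gave no call. Of 27 Polycomb genes, which keep Hox clusters silent, 25 were tested and 0 passed, with 11 positive differences and a median of -0.06; Phf1 was at -0.46 and Rnf2, a ubiquitin ligase subunit, at -0.20 (limma adjusted p = 0.944 each). Of 14 genes of MLL complexes and H3K27 demethylases, which keep them active, 13 were tested and 0 passed, with a median of -0.08, Kmt2b at -0.18 and Kmt2a at -0.28. Of 18 retinoic acid pathway genes, 9 were tested and 0 passed. The receptor gene Rarb was at 0.39, and Cyp26a1, which degrades retinoic acid, had signals of 57.9, 119 and 584 in wildtype and 48.7, 44.8 and 93.6 in transgenic arrays, with a difference of -1.17 that was -0.36 without wildtype replicate 3. Of 15 nephron development genes, 7 were tested and 0 passed, with Six4 at -0.32 and Wt1 at -0.34. None of the 4 genes Cdx1, Cdx2, Cdx4 and Gdf11 was bright enough to be tested.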

How the data were processed

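Signals of 45101 probe sets in 6 arrays were analysed, 3 per group, with groups taken from the titles. The deposited values are intensities, MAS5 signals made by the authors per the submitters' processing notes, which give no version; the values show that each array was scaled to a mean of 500 without its lowest and highest 2%. Probe sets were named from the array's annotation (34945 with 1 symbol, 932 with several, 9160 with none, 64 controls), and 34754 were matched to RefSeq symbols by Entrez number. Here, log2(signal + 28) was computed, 28 being the 25th percentile of all values; this understates ratios of dim genes. Probe sets in the upper 50% by mean log2 value were kept and the brightest stood for its gene, which left 11159 genes. The transgenic and wildtype arrays were compared by limma (version 3.58.1, R 4.3.3; lmFit, then eBayes allowing a trend with intensity; 7.08 degrees of freedom per gene) with Benjamini-Hochberg adjustment over all genes at 0.05. The test was tested on simulated data. Every Hox gene with a probe set was to be named, with values by array for those tested and the 3 brightest others, and from each pathway list the members that passed or the 2 of lowest p. The members and lists were chosen with earlier results of these data known. Alternatives changed the pseudocount, scaling, filter, probe set rule, variance trend, array weights, tubule covariates and replicate block, and left out each array. The number of arrays limits the precision.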

Additional observations from a re-analysis of the deposited data

How the results depend on the processing

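In each of 18 alternative settings 0 Hox genes passed the threshold. The count over all genes, 9 as reported, was 33 with array weights, 36 with the proximal tubule covariate, 30 with the distal nephron covariate and 1 with the replicate number as a block; leaving out 1 array it ran from 1 (without transgenic replicate 1) to 12. The correlations between arrays gave no sign of pairing by replicate number. Deviations of same-numbered arrays correlated at -0.02, -0.41 and -0.51, and no array correlated best with its own number. Deviations within so small a group depend on each other, so this check could not decide whether the mice were paired. The median Hox difference of -0.09 was 0.045 with array weights and ran from -0.11 to 0.0051 when 1 array was left out. The Vhl difference ran from -0.30 to -0.16 and passed in none of the settings. Of 369 repeats of single Hox genes, 35 turned sign and none passed. With array weights the values were 0.089 (Hoxa5), 0.043 (Hoxa9), 0.045 (Hoxb3), 0.035 (Hoxb5), 0.12 (Hoxc6) and 0.025 (Hoxd10). With the proximal tubule covariate they were 0.029 (Hoxa5), 0.00098 (Hoxa9), 0.034 (Hoxb3), 0.042 (Hoxb5) and 0.038 (Hoxc6), and with the distal nephron covariate 0.0016 (Hoxa5), 0.017 (Hoxb3), 0.0224 (Hoxb5) and 0.0223 (Hoxc6). Averaging probe sets gave -0.079 (Hoxa3) and 0.29 (Hoxc6), median scaling -0.039 (Hoxb2) and -0.033 (Hoxb4), and quantile normalization -0.0060 (Hoxb4). The Hoxc6 average includes the probe set at 0.85, which was kept largely through its transgenic signals. Leaving out 1 array gave ranges of -0.063 to 0.27 (Hoxa3), -0.20 to 0.027 (Hoxa5), -0.015 to 0.052 (Hoxb2), -0.18 to 0.044 (Hoxb3), -0.030 to 0.13 (Hoxb4), -0.35 to 0.029 (Hoxb5), -0.035 to 0.34 (Hoxb9), -0.23 to 0.14 (Hoxc6), -0.0502 to 0.38 (Hoxc9) and -0.13 to 0.0091 (Hoxd9). The cause was not tested. Median scaling moved the median of all genes from 0.0043 to -0.06.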

Other observations

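Antisense RNAs of the Hox clusters also had probe sets. Hoxb5os, transcribed opposite Hoxb5 and Hoxb6, had signals of 2694, 2233 and 2474 in wildtype and 2634, 2283 and 2512 in transgenic arrays, a log2 difference of 0.0070, and thus varied less between arrays than Hoxb5. Hoxd3os1 had 489, 351 and 590 in wildtype and 679, 706 and 506 in transgenic arrays on its brighter probe set, a log2 difference of 0.40 with overlapping groups. Hoxa11os had 51.6, 116 and 170 in wildtype and 124, 96.5 and 61.8 in transgenic arrays, a log2 difference of -0.14. Hoxa11os, like Hoxa3 and Hoxc8, was highest of the wildtype arrays in replicate 3 and lowest of the transgenic arrays in replicate 3.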
